A study of Homo sapiens with 4 samples.

Results

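The nuclear genes for the subunits of the oxidative phosphorylation complexes were examined for peaks of HNRNPC, a mostly nuclear RNA-binding protein, and of PABPC4, a poly(A)-binding protein. The members were protein-coding genes whose symbols start with NDUFA, NDUFB, NDUFC, NDUFS, NDUFV, UQCR, COX4I, COX5, COX6, COX7, COX8, ATP5F, ATP5M or ATP5P, together with CYC1 and SDHA to SDHD, and the NDUFAF assembly factors were left out. There were 90 such genes among 19313 protein-coding genes with a gene model, and 81 of them were listed in at least 1 of the 2 peak lists. NDUFA4 and NDUFA4L2, which RefSeq now names as complex IV proteins, were kept under their older symbols and counted with complex IV. The members held 14 of the 9107 HNRNPC peak positions and 214 of the 63507 PABPC4 peak positions, each position counted once.

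All samples were of the human breast cancer cell line MDA-MB-231, with no genetic change or drug treatment given in the labels, cross-linked with 400 mJ per square centimetre of ultraviolet light at 254 nm. There were 2 HNRNPC samples, made by irCLIP, and 2 PABPC4 samples, made by PAPERCLIP. In both methods the cross-linked protein is immunoprecipitated and its RNA fragments are sequenced as tags. PAPERCLIP starts reverse transcription in the poly(A) tail and so marks mRNA 3′ ends. The 2 samples of each protein had been pooled into 1 list, so the values have no replicate error and no p-value was computed. A peak's height is its number of pooled tags at the summit, not scaled to depth or to RNA abundance. The intervals given are 95% Wilson intervals unless named otherwise and cover counting error only.

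Oxidative phosphorylation runs in the inner mitochondrial membrane. Complexes I (NADH dehydrogenase) and II (succinate dehydrogenase) pass electrons to ubiquinone, complex III (the cytochrome bc1 complex) passes them to cytochrome c, complex IV (cytochrome c oxidase) reduces oxygen, and complex V (ATP synthase) uses the resulting proton gradient to make ATP. Most subunits are encoded in the nucleus as short, abundantly transcribed housekeeping mRNAs. A cleavage site for polyadenylation usually follows a hexamer such as AATAAA, the poly(A) signal, by a short distance. The members lay in compact genes, with a median span of 12.2 kb (quartiles 5.86 and 22.4 kb) against 27.4 kb for other protein-coding genes, and their annotated 3′ UTRs covered a median of 466.5 nt against 1341 nt.

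The sequences that carry the main result are the short stretches from the poly(A) signal to the 3′ end of the tallest PABPC4 peaks. They are printed for the 5 tallest members and for the tallest of complexes I, II and III, from the hg38 reference on the strand of the gene, 5′ to 3′, with the signal in capitals. Each starts at the signal, and stretches longer than 30 nt were stopped at 30 nt.
ATP5F1E, chr20:59028682-59028711, minus strand: AATAAAttgaaatatggttcactgttactc
ATP5F1A, chr18:46084147-46084168, minus strand: AATAAAggttccataatgcata
COX7C, chr5:86620748-86620768, plus strand: AATAAActtatgacgtgaatg
COX8A, chr11:63976522-63976547, plus strand: AATAAAatctatttaaactttacttc
ATP5MC3, chr2:175178140-175178163, minus strand: ATTAAAgatgaaaactttaatttc
NDUFA13, chr19:19528177-19528199, plus strand: AATAAAtgctctgcagacctggc
SDHB, chr1:17018728-17018757, minus strand: AATAAAtgttattctactttattaacaaaa
UQCRQ, chr5:132867666-132867688, plus strand: AATAAActtcctatggtctgcac
The centres of all 8 peaks lie in annotated 3′ UTRs, and the COX8A stretch runs 4 nt past the annotated end of its gene. The ATP5F1E peak ended 2 nt further downstream than the printed stretch. The other 7 stretches end at the last base of the peak. Within 50 nt downstream of the ATP5F1A, ATP5MC3 and SDHB peaks lay a stretch rich in A.

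PABPC4 peaks were listed for 81 of 90 members (90%, interval 82.1 to 94.6%), beside 61.3% of all protein-coding genes. A PABPC4 peak in the gene's own 3′ UTR was listed for 76 members (84.4%, interval 75.6 to 90.5%), beside 49.7% of all. Among members spanning under 10 kb, 33 of 41 had a PABPC4 peak, beside 36.2% of all genes of that span. All 28 members of 10 to 25 kb had one, beside 58.2%, and 20 of the 21 longer members did, beside 75.0%. The share of members was above the background in each span class. For a peak in the 3′ UTR, 31 of 41 members under 10 kb had one beside 32.8%, all 28 of 10 to 25 kb beside 51.3%, and 17 of 21 at 25 kb or more beside 57.3%. The peak lists come with no RNA abundance, so the part of transcript level in these shares was not tested.

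**Figure D1:**
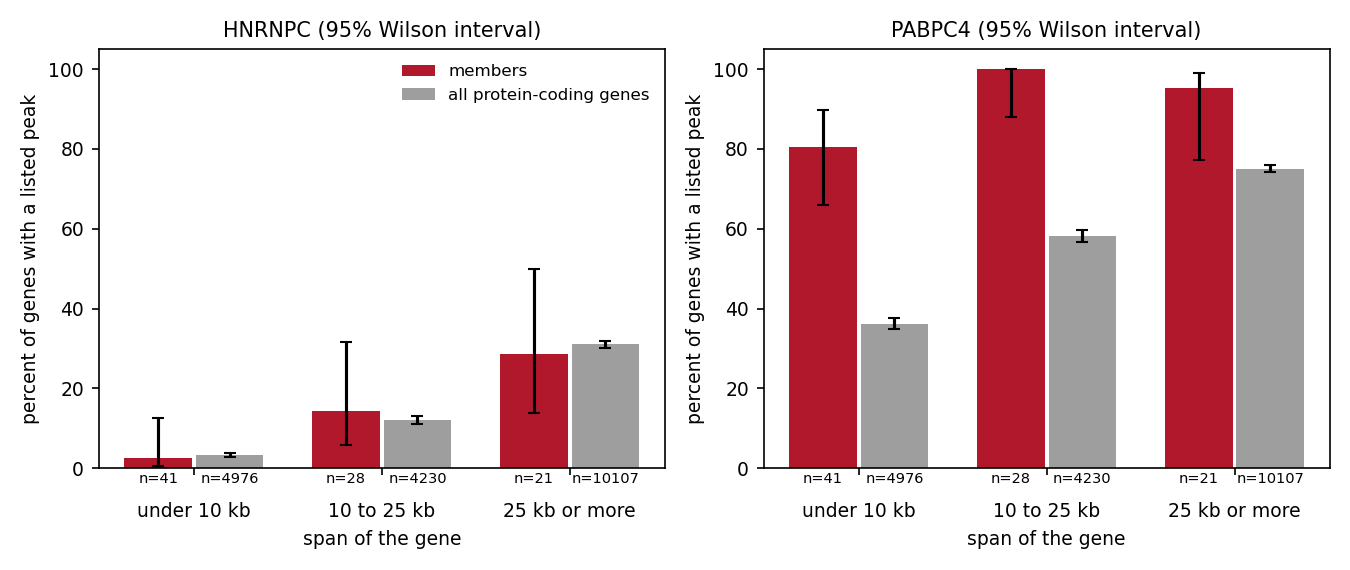
Percent of genes with at least 1 listed peak (y axis) by the span of the gene (x axis), for HNRNPC on the left and PABPC4 on the right. Red bars are the members, grey bars all protein-coding genes, lines are 95% Wilson intervals, and the number of genes stands under each bar. For HNRNPC the red and grey bars rise together, from 2.44 and 3.22% under 10 kb to 28.6 and 31.0% at 25 kb or more, while for PABPC4 the red bars stand above the grey ones in all 3 classes.

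The tallest PABPC4 3′ UTR peak of a member had a median height of 340.5 tags (quartiles 177.5 and 552, range 9 to 2222), against 71 tags (quartiles 33 and 142) for the 9514 other genes with such a peak. The members' median was above the value of 92.4% of those other genes. There were 23 members at 500 tags or more (30.3%), against 409 of the other genes (4.30%). The peak was also the main one of its gene. It held a median of 83.7% of the summed height of all PABPC4 peaks listed under the member, against 44.3% elsewhere, and it was the gene's sole PABPC4 peak in 21 members (27.6%) against 19.1% of other genes. Members with a peak had a median of 2 PABPC4 peaks (range 1 to 9), against 3 (range 1 to 333) in other genes.

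**Figure D2:**
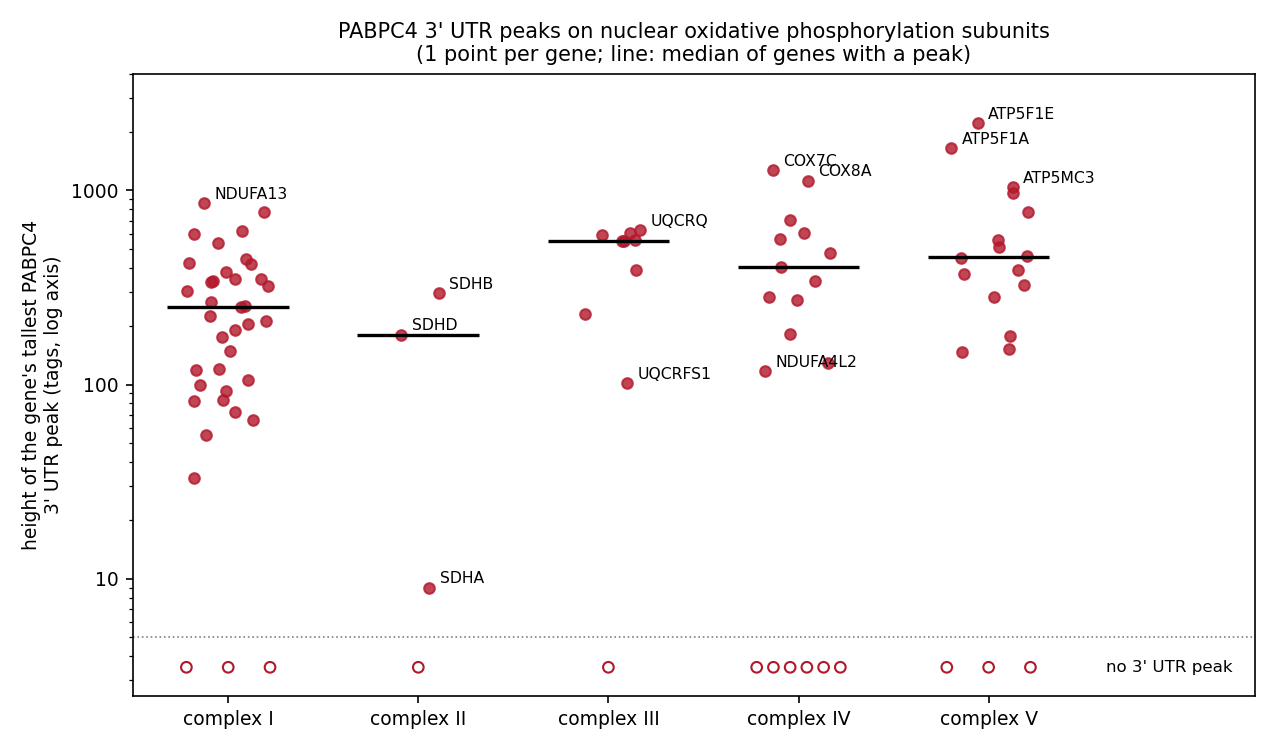
Height in tags of the tallest PABPC4 3′ UTR peak of each member (y axis, log scale) by complex (x axis). Filled points are genes, black lines are the medians of the genes with a peak (251 tags for complex I, 181 for II, 551 for III, 402 for IV and 454 for V), and the open points in the strip at the bottom are the 14 members with no PABPC4 3′ UTR peak, which have no height. ATP5F1E at 2222 tags and SDHA at 9 tags are the extremes.

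Among the 38 genes of complex I, 35 had a PABPC4 3′ UTR peak, with a median height of 251 tags. The tallest were on small accessory subunits. NDUFA13, also known as GRIM-19, had 865 tags, NDUFS5 had 778, NDUFA1 had 621, NDUFB1 had 600, and NDUFAB1, the mitochondrial acyl carrier protein, had 536. The 6 nuclear genes of the catalytic core described here, which carry the flavin, iron-sulphur clusters or part of the path to ubiquinone, ranged from 55 to 418 tags with a median of 148.5. The 28 accessory genes with a peak ranged from 66 to 865 tags with a median of 283.5, so the groups overlapped. Within the core, NDUFV1, which binds FMN and oxidises NADH, had 418 tags. NDUFS7 had 206 tags and NDUFS8 had 176, NDUFV2 had 121 and NDUFS3 had 119. The sequence of the NDUFV2 peak has 1 other place in the reference with up to 2 mismatches. The lowest of the 6 was NDUFS1, the largest subunit of complex I, at 55 tags.

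Complex II had the lowest median of the 5 complexes, 181 tags. Of its 4 genes, SDHB, the iron-sulphur subunit, had 297 tags at its 3′ end, with an A-rich stretch downstream. SDHD, a membrane anchor, had 181 tags. SDHA, the flavoprotein that oxidises succinate, had a 3′ UTR peak of 9 tags that ended 109 nt before the nearest annotated end. SDHC, the other membrane anchor, had no peak in its annotated 3′ UTR. The tallest peak listed under SDHC, of 151 tags, ended 213 nt past the end of the gene model, with an A-rich stretch just downstream and no poly(A) signal in its last 40 nt. Each of the 4 genes also had at least 1 PABPC4 peak in an intron.

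Complex III had the highest median, 551 tags. CYC1, cytochrome c1, had 551 tags and UQCRH, the hinge protein next to it, had 555. UQCRQ had 625 tags, UQCRB 603, UQCR11 592 and UQCR10 549, all of them small subunits. The large core subunits were lower, with 391 tags for UQCRC1 and 230 for UQCRC2. UQCRFS1, the Rieske iron-sulphur protein, was lowest at 102 tags.

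In complex IV, COX7C had 1273 tags and COX8A had 1123, followed by COX6C at 705, COX6A1 at 606, COX7A2 at 564 and COX6B1 at 478. NDUFA4 had 402 tags, COX7B had 343, COX5B had 284 and COX4I1 had 274. The lowest were COX7A2L, which is known for joining complexes III and IV into supercomplexes, at 182 tags, COX5A at 129 and NDUFA4L2, a gene known to be induced by low oxygen, at 117.

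In complex V, the catalytic head showed values from 372 to 2222 tags. ATP5F1E, the epsilon subunit, had 2222 tags, ATP5F1A, the alpha subunit, had 1655, and ATP5F1B, the catalytic beta subunit, had 776. ATP5F1C, the gamma shaft, had 450 tags and ATP5F1D, the delta subunit, had 372. The c ring is built from the same mature protein encoded by 3 genes, and their peaks were unequal, with 1041 tags for ATP5MC3, 387 for ATP5MC2 and 152 for ATP5MC1. In the stalk, ATP5PF had 326 tags, ATP5PO, the oligomycin sensitivity conferring protein, had 178 and ATP5PB had 147. ATP5PD, the d subunit of the stalk, had no 3′ UTR peak. Its 2 peaks lay in coding sequence, at 117 and 41 tags, and the taller ended 112 nt before the annotated end of a transcript whose 3′ UTR measures 72 nt. Among the membrane subunits that shape ATP synthase dimers, ATP5MF had 971 tags, ATP5ME 555, ATP5MG 511, ATP5MJ 458 and ATP5MK 283. The sequence of the ATP5MK peak has 1 other place in the reference with up to 2 mismatches.

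The position of these peaks was compared with the annotation. Of the 76 tallest 3′ UTR peaks, 59 (77.6%, interval 67.1 to 85.5%) ended within 25 nt of an annotated protein-coding transcript end, beside 59.3% of all genes with such a peak. There were 51 that ended within 5 nt (67.1%), against 44.4% in other genes. AATAAA or ATTAAA stood in the last 40 nt of 64 of the 76 (84.2%, interval 74.4 to 90.7%), beside 61.1% of all. Both properties were met by 56 members (73.7%), against 47.4% of the other genes. The signal started a median of 24 nt before the peak end (range 8 to 35 nt) in members and 21 nt (range 6 to 40 nt) elsewhere. In complex V all 16 tallest peaks had a signal, and 15 of the 16 ended within 25 nt of an annotated end, the other being ATP5PB.

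**Figure D3:**
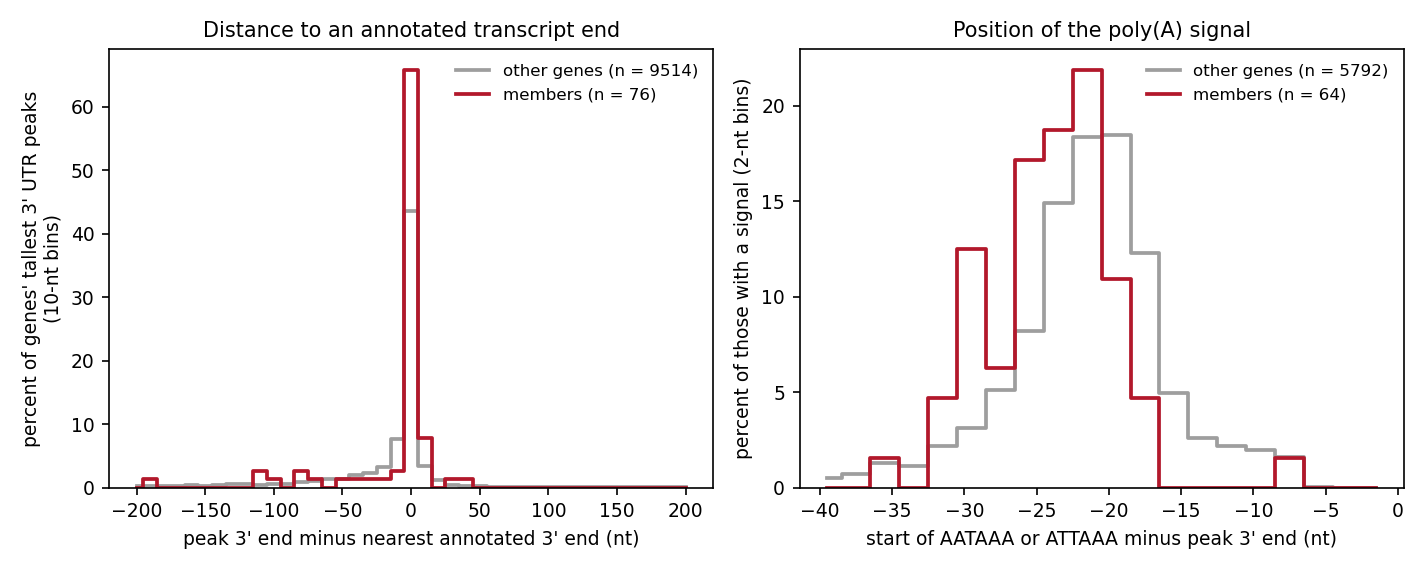
Left, distance in nt of the end of each gene's tallest PABPC4 3′ UTR peak from the nearest annotated 3′ end (x axis, 0 is the annotated end), as percent of genes per 10-nt bin (y axis). Right, start of the nearest AATAAA or ATTAAA relative to the peak end in nt (x axis), as percent of the peaks with a signal per 2-nt bin (y axis). Red is members, grey is other genes. Both curves peak at 0 on the left, and on the right the red curve lies a few nt further upstream, with medians of 24 and 21 nt before the peak end.

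There were 17 members whose tallest 3′ UTR peak ended more than 25 nt from any annotated protein-coding end. Of these, 8 had a poly(A) signal. NDUFV3 ended 4200 nt before the annotated end, UQCRFS1 1954 nt before it, NDUFA4 1514 nt before it and COX7A2L 1168 nt before it, each with a signal 17 to 22 nt before the peak end. When the ends of all transcripts were counted, NDUFV3 lay 6 nt and COX7A2L 1 nt from an end, while UQCRFS1 stayed at 1954 nt. NDUFA4 then lay 58 nt past an end. The other 4 with a signal were UQCR10, NDUFB6, NDUFA7 and ATP5PB, at distances of 77 to 308 nt. With the ends of all transcripts, ATP5PB lay 2 nt and NDUFA7 5 nt from an end, UQCR10 and NDUFB6 stayed at 82 and 113 nt, and of those without a signal COX5B lay 0 nt, NDUFA2 1 nt and NDUFS3 6 nt from an end.

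There were 12 members whose tallest peak had no signal. NDUFB10, at 254 tags, ended 1 nt from its annotated end and held TATAAA 18 nt before the peak end. NDUFA4L2 held AATACA at the same distance, and NDUFA2, at 339 tags, held CATAAA 24 nt before its peak end. These hexamers differ from AATAAA by 1 base. NDUFA2 had a second 3′ UTR peak of 43 tags that ended 5 nt before the annotated end with AATAAA. SDHA, COX5A, NDUFS3, NDUFA9 and UQCRB held no such variant in the last 40 nt. Lower 3′ UTR peaks with a signal were also listed for NDUFA8 (79 tags), NDUFA9 (49), UQCRC2 (24), UQCRB (22) and COX5A (17). Those of UQCRC2 and COX5A had an A-rich stretch downstream, and the sequence of the UQCRB peak has 113 other places in the reference.

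Alternative 3′ ends were looked for as pairs of PABPC4 3′ UTR peaks more than 50 nt apart, each with a poly(A) signal. Such pairs were found in 6 of 90 members (6.67%, interval 3.09 to 13.8%), beside 7.79% of all protein-coding genes. Only genes with a PABPC4 3′ UTR peak can have a pair, and more of the members had one. Among genes with such a peak, pairs were found in 6 of 76 members and in 1504 of 9590 protein-coding genes, a lower share in members. The proximal peak was the taller in 5 of the 6. ATP5MJ had 458 tags at the proximal and 158 at the distal end, 228 nt apart. ATP5MG had 511 and 115 tags, 644 nt apart. COX7C had 1273 and 106 tags, 194 nt apart, and an A-rich stretch lay downstream of its distal peak. ATP5MC3 had 1041 and 57 tags, 256 nt apart, with an A-rich stretch downstream of the proximal peak, and a further peak of 51 tags with AATAAA ended 5 nt before an annotated end. ATP5PB had 147 and 57 tags, 77 nt apart. NDUFB5 alone had the taller peak at the distal end, with 19 tags at the proximal and 191 at the distal end, 398 nt apart. Its proximal peak was 21 nt wide, had an A-rich stretch downstream, and its sequence has 146 other places in the reference with up to 2 mismatches. Of the 6 genes, 4 encode subunits of complex V.

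The signals of the 3 pairs with the highest lower peak are shown so that both ends can be compared, with the signal in capitals.
ATP5MJ proximal, chr14:103912517-103912538, minus strand: AATAAAtggatctgtgagatgc
ATP5MJ distal, chr14:103912289-103912310, minus strand: ATTAAActtgatcctgctactt
ATP5MG proximal, chr11:118409178-118409202, plus strand: AATAAAataagatttgtcaaaactc
ATP5MG distal, chr11:118409826-118409846, plus strand: AATAAAtgaaatgattgctat
COX7C proximal, printed above with AATAAA, and COX7C distal, chr5:86620940-86620962, plus strand: AATAAAagggaaatacaaatcga
In ATP5MJ the taller proximal end carried AATAAA and the lower distal end ATTAAA, while in ATP5MG and COX7C both ends carried AATAAA.

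**Figure D4:**
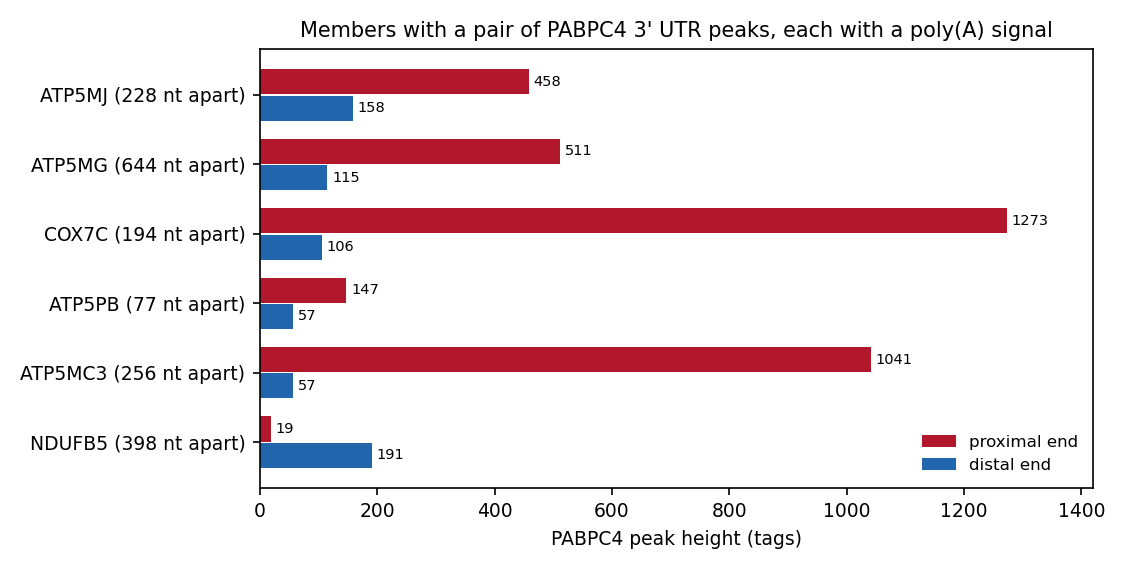
PABPC4 peak height in tags (x axis) at the proximal (red) and distal (blue) end of the 6 members with a pair of 3′ UTR peaks that each hold a poly(A) signal, with the distance between the ends beside each symbol. The red bar is longer in 5 genes, with the widest difference in tags in COX7C, 1273 against 106, and the highest ratio in ATP5MC3, 1041 against 57, and the blue bar is longer in NDUFB5 at 191 against 19 tags.

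Over all 214 member positions, 109 PABPC4 peaks (50.9%, interval 44.3 to 57.6%) lay in 3′ UTRs and 61 (28.5%, interval 22.9 to 34.9%) in introns, against 31.0% and 59.6% of the 60370 positions of other genes. Coding sequence held 22 (10.3%) against 5.25%. Among the 3′ UTR peaks, a signal was present in 77 of 109 (70.6%), against 48.6% elsewhere, and 70 of 109 (64.2%) ended within 25 nt of an annotated end, against 42.8%. An intron peak was listed for 39 of 90 members (43.3%), beside 40.7% of all protein-coding genes. By span, 8 of 41 members under 10 kb had one beside 5.02%, 13 of 28 beside 26.7% and 18 of 21 beside 64.1%. Intron peaks were lower and narrower. They had a median height of 38 tags against 182 tags in member 3′ UTRs and a median width of 47 nt against 76 nt. Of the 61, 42 (68.9%, interval 56.4 to 79.1%) had an A-rich stretch within 50 nt downstream, and 4 had a signal. In other genes 71.2% of intron peaks had such a stretch. A reverse transcription primer made to anneal to poly(A) tails can also anneal to A-rich stretches within a transcript, and whether it did so here was not tested.

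**Figure D5:**
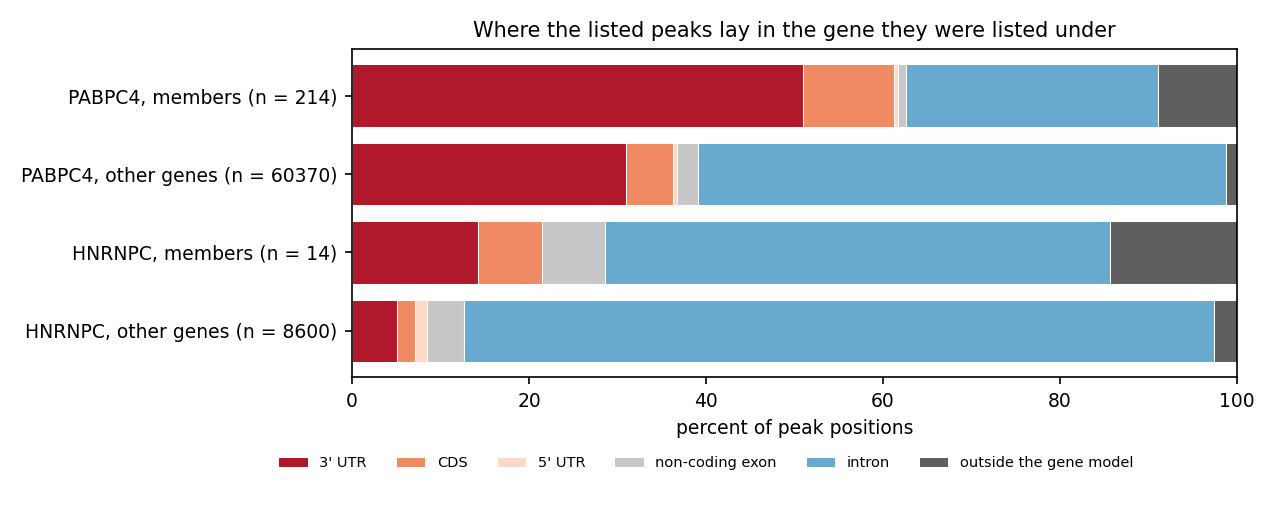
Share of peak positions (x axis, percent) by the part of the gene in which the peak centre lay, for PABPC4 and HNRNPC and for members and other protein-coding genes (n is the number of positions). Colours stand for the parts named in the legend, where CDS is coding sequence. The 3′ UTR part of the PABPC4 bar covers 50.9% in members and 31.0% in other genes, and introns make up most of both HNRNPC bars.

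The 22 coding-sequence peaks lay in 19 members, and 10 of them ended within 200 nt of an annotated end. None had a poly(A) signal, which with 0 of 22 allows a share of up to 13.6%, and the share in other genes, 6.40%, lies within that limit. An A-rich stretch lay downstream of 3 of the 22 (13.6%, interval 4.75 to 33.3%), against 62.5% of coding-sequence peaks in other genes. There were 6 with 100 tags or more. NDUFB1 had 170 tags, COX7C 161, ATP5ME 152, ATP5F1B 127, ATP5PD 117 and ATP5F1E 107, and in all of these but ATP5PD the 3′ UTR peak was the taller. The members with the most PABPC4 peaks were NDUFS1 with 9, and NDUFA9 and NDUFV2 with 7 each, followed by UQCRC2, ATP5MC2, ATP5PO and ATP5MF-PTCD1 with 6 each. In NDUFS1 7 of the 9 lay in introns, at 19 to 71 tags, and its tallest 3′ UTR peak held 15.4% of the summed height. The sequences of these 7 intron peaks each have at least 1 other place in the reference with up to 2 mismatches. This held for 57 of the 214 member PABPC4 peaks (26.6%) and for 13 of the 109 in 3′ UTRs (11.9%). Of the 7 NDUFA9 peaks, 5 lay in the 3′ UTR. The tallest of these 5, at 72 tags, was 15 nt wide. Its sequence has 7 other places in the reference, besides 2 on alternate contigs.

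There were 19 PABPC4 positions (8.88%) listed under a member but outside its gene model, against 1.26% in other genes. ATP5PO had 5 of them, which ended 247815 to 316804 nt past its annotated end and were listed under 8 or 9 gene IDs. SDHC had 4, NDUFV2 had 3, and NDUFA9, SDHD and ATP5MF-PTCD1 had 2 each. The remaining position was listed under NDUFC2-KCTD14. This gene and ATP5MF-PTCD1 are read-through genes that run from a member into the next gene, and the main 3′ end peaks of NDUFC2 (424 tags) and ATP5MF (971 tags) were listed under them as well.

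HNRNPC peaks were listed for 11 of 90 members (12.2%, interval 6.96 to 20.6%), beside 19.7% of all protein-coding genes. Longer genes offer more intron to bind, so the shares were also taken by span. They were 1 of 41 members under 10 kb beside 3.22%, 4 of 28 members of 10 to 25 kb beside 12.0%, and 6 of 21 members of 25 kb or more beside 31.0%. Each background share lay within the members' interval. Per 100 kb of gene there were 0.742 member peaks (exact Poisson interval 0.405 to 1.24) and 0.667 in other genes. By span the order turned, with 0.490 member peaks against 1.14 in other genes under 10 kb, 1.12 against 1.22 at 10 to 25 kb and 0.631 against 0.633 at 25 kb or more, and each of these values for other genes lay within the members' interval. All 11 members also had a PABPC4 peak, as did 3722 of the 3805 protein-coding genes with an HNRNPC peak. Peaks of both proteins were thus listed for 12.2% of members, beside 19.3% of all protein-coding genes. By complex, an HNRNPC peak was listed for 6 of 38 genes of complex I (15.8%, interval 7.44 to 30.4%). It was 3 of 19 for complex V (15.8%, interval 5.52 to 37.6%), 1 of 4 for complex II and 1 of 10 for complex III. The share of all protein-coding genes lies within the interval of each of these complexes. None of the 19 genes of complex IV had an HNRNPC peak, which allows a share of up to 15.8%. The 19.7% of all protein-coding genes covers genes of every span, and complex IV was not split by span.

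HNRNPC peaks in members were low, with a median of 10 tags (range 6 to 24), against 11 tags (range 3 to 426) elsewhere. By part of the gene, 8 of 14 lay in introns (57.1%, interval 32.6 to 78.6%), against 84.7% in other genes. Another 2 lay in 3′ UTRs (14.3%, interval 4.01 to 39.9%), against 5.06%, 1 in coding sequence, 1 in a non-coding exon and 2 outside the gene model. At gene level, 2 of 90 members (2.22%) had an HNRNPC 3′ UTR peak, beside 1.88% of all protein-coding genes. An intron peak was listed for 7 members (7.78%), beside 16.7%. NDUFA10 and ATP5MC2 had a peak in coding sequence or a non-coding exon (2.22%), beside 2.87% with a peak there or in a 5′ UTR. Neither of those exon peaks had a listed p-value of at most 0.001. Of the 14 member peaks, 10 did (71.4%), against 70.7% in other genes, and with these alone 9 members had an HNRNPC peak.

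The HNRNPC 3′ UTR peaks were those of UQCR11 and ATP5F1A, each with 13 tags. The UQCR11 peak, chr19:1597796-1597902 on the minus strand, started 144 nt downstream of the main PABPC4 peak of that gene (592 tags) and lay 521 nt upstream of a further PABPC4 3′ UTR peak (45 tags). That further peak had an A-rich stretch downstream, no poly(A) signal in its last 40 nt and an end 59 nt before the nearest annotated end. It was also listed under a second gene ID. The ATP5F1A peak, chr18:46081368-46081460 on the minus strand, started 2686 nt downstream of the main PABPC4 peak (1655 tags), in a longer annotated 3′ UTR with no PABPC4 peak listed beyond it. The first 30 nt of both peaks are shown because HNRNPC is known to bind runs of U, written as T here.
UQCR11, chr19:1597873-1597902, minus strand: aatggctcataagtagtatctgcagtgtgt
ATP5F1A, chr18:46081431-46081460, minus strand: actcctgaccttaggtggtccaccggcctc
Neither stretch holds TTTTT, and TTTTT was found inside none of the 14 member peaks, which allows a share of up to 21.4%, against 13.2% of HNRNPC peaks in other genes. In the 50 nt upstream of the peak it stood in 3 of 14 (21.4%, interval 7.57 to 47.6%), against 31.0% elsewhere. The 3 were ATP5F1A in its 3′ UTR, NDUFS6 and ATP5MF-PTCD1.

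The tallest HNRNPC peak of a member, 24 tags, was listed under NDUFA13 but ended 1117 nt past a transcript end of that gene, outside its model, and was also listed under a second gene ID. NDUFV3 and NDUFS6 had intron peaks of 14 tags. NDUFA10, a gene of 133 kb, had the most HNRNPC peaks, with 10 and 9 tags in introns and 7 tags in coding sequence. Single intron peaks were listed for SDHA and NDUFAB1 at 10 tags, ATP5F1A at 9 and ATP5MF-PTCD1 at 7. ATP5MC2 had 6 tags in a non-coding exon, and NDUFV2 had 8 tags outside its model, 31334 nt past a transcript end.

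GTGTCA was a hexamer found in the last 20 nt of 23.7% of HNRNPC peaks in other genes and of 3 of the 14 member peaks (21.4%, interval 7.57 to 47.6%). Their last 30 nt are shown with that hexamer in capitals, since so many peaks of this list hold it within their last 20 nt.
NDUFA13, chr19:19530142-19530171, plus strand: cccctcctggaagcatttggcgaGTGTCAg
NDUFA10 intron, chr2:239980263-239980292, minus strand: ccctgcccgacaGTGTCAtcccagtgtcct
NDUFV3 intron, chr21:42901782-42901811, plus strand: ctgagtcatgcagtgtccacacagGTGTCA
The hexamer lay at or 1 nt from the end in NDUFV3 and NDUFA13. Its source was not tested.

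No peak of either protein was listed for 9 members (10.0%), beside 38.2% of all protein-coding genes. Of these, 7 are isoforms or copies known for restricted expression. COX4I2, known from lung, had none while COX4I1 had a peak of 274 tags, and COX6A2 and COX7A1, the heart and muscle isoforms, had none while COX6A1 had 606 tags and COX7A2 had 564. COX6B2, COX7B2 and COX8C, known from testis, had none while COX6B1 had 478 tags, COX7B had 343 and COX8A had 1123. ATP5MGL, an intronless copy, had none while ATP5MG had 511. UQCRHL, the copy of UQCRH, had a 22-tag peak in its 5′ UTR whose sequence has other places in the genome, against 555 tags at the 3′ end of UQCRH. NDUFA4L2 had a 3′ UTR peak of 117 tags against 402 for NDUFA4.

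The other 2 members without a peak were NDUFA3 and NDUFA6, broadly expressed accessory subunits of complex I. The last 100 nt of their main transcripts have exact copies on alternate contigs of the hg38 reference, 9 for NDUFA3 and 3 for NDUFA6, and among the other members this was true of COX8C alone. Of the 833 protein-coding genes whose last 100 nt have such a copy, with up to 2 mismatches, 3.12% had a PABPC4 peak and 1.20% an HNRNPC peak, against 64.0% and 20.5% of the 18480 other genes. Whether alternate contigs were in the alignment index is not given in the sources used here, and their part in these absences was not tested.

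The partners of these subunits were counted in the same way. Of 52 assembly factors, 50 had a PABPC4 peak (96.2%), beside 61.3% of all protein-coding genes. A PABPC4 3′ UTR peak was listed for 48 (92.3%), beside 49.7% of all. The tallest of each gene had a median height of 83.5 tags, against 340.5 tags for the subunits. The tallest were NDUFAF8 at 532 tags and COX16 at 331. HNRNPC peaks were listed for 13 of the 52 (25%, interval 15.2 to 38.2%), the tallest in introns of ACAD9 (27 tags) and COA1 (23 tags). The share of all protein-coding genes, 19.7%, lies within that interval, and the assembly factors were not split by span. Of the 13 subunits encoded in mitochondrial DNA, none was listed for either protein, which allows a share of up to 23.1%. The 3 HNRNPC and 7 PABPC4 positions on the mitochondrial chromosome were listed under the ribosomal RNA genes.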

How the data were processed

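Per the labels and the study's methods, the authors collapsed reads by molecular identifier, trimmed them with cutadapt, aligned them with BWA 0.7.17 to hg38, removed duplicates and found peaks by valley seeking in the CLIP Tool Kit. How the PABPC4 tags were processed is not given separately in the sources used here, and the name of the HNRNPC list gives HITS-CLIP instead of irCLIP. The deposited signal is the peak height in tags of pooled samples, with a gene ID, an expected height and a p-value. The largest listed p-value of the authors' peak calling was 0.1 for HNRNPC and 0.05 for PABPC4. Tags per library were not analysed here, and no statement rests on depth.

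Each position was counted once. Gene IDs were matched to RefSeq (GRCh38.p14) and GENCODE 44, which gave models for 19313 of 20056 protein-coding genes. A peak was assigned by its centre within the gene it was listed under, in the order 3′ UTR, CDS, 5′ UTR, non-coding exon, intron. A signal was AATAAA or ATTAAA in the 40 nt before the peak end. A peak counted as followed by an A-rich stretch where the next 50 nt held 6 consecutive A or a window of 10 nt with 7 A. Copies in the reference (up to 2 mismatches) were found with BLAST 2.17.0. Other steps used Python 3.11.15, pysam 0.24.0 and scipy 1.17.1, and were tested on simulated data. Members with exonic HNRNPC peaks, the 5 tallest and the 5 with most peaks, members with paired ends, members without peaks, isoform pairs and complex II were named by rule, and further members were named afterwards. The members and lists were chosen with earlier results of these data known. A gene of complex I was counted but is not reported here.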

Additional observations from a re-analysis of the deposited data

How the results depend on the processing

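The 10 counts and shares were recomputed 102 times, and 89 of the values stayed within 1.5 times the main count or within the interval of the main share. With peaks at or above the median height of their list, members with an HNRNPC peak fell from 11 to 5 and HNRNPC peaks per 100 kb were 0.265. The 3′ UTR share of PABPC4 peaks was then 63.4%. The share of all member PABPC4 peaks with an A-rich stretch was then 27.6%, from a main value of 37.4%. Without positions listed under more than 1 gene ID, 6 members had an HNRNPC peak and 1 had an HNRNPC 3′ UTR peak, that of ATP5F1A. Without peaks that have another place in the reference, the PABPC4 3′ UTR share was 61.1% and the A-rich share 29.9%. Without PABPC4 peaks followed by an A-rich stretch, the 3′ UTR share was 67.2%. Counting 6 A in a row within 20 nt gave an A-rich share of 13.6%. The signal share was 57.8% for AATAAA alone and 84.2% for the tallest peak of each gene, for which 77.6% ended within 25 nt of an annotated end. Members with a PABPC4 peak ranged from 64 to 81 and those with a PABPC4 3′ UTR peak from 58 to 76. Leaving out the read-through genes, genes with a copy on an alternate contig, or peaks outside the gene model was added after seeing the data. No paired analysis was possible because the lists used here are pooled and have no column per sample, and for the same reason no replicate could be left out. With 14 HNRNPC peaks in members, a feature held by up to 21.4% of such peaks could have gone unseen.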

Other observations

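Among the processed pseudogenes of these subunits, which are no members, ATP5F1EP2 on chromosome 13 was listed with 2 PABPC4 peaks, of 234 and 114 tags. The 3′ end peak of its parent gene ATP5F1E had 2222 tags, and its own sequence had no other place in the reference with up to 2 mismatches.

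Member PABPC4 peaks in introns were often of nearly the same width. Of 61, 39 (63.9%) were 46 to 48 nt wide, against 13 of 109 (11.9%) in member 3′ UTRs, 58.0% of intron peaks and 27.8% of 3′ UTR peaks in other genes.

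In 5 of the 6 members with paired 3′ ends the height ratio of proximal to distal peak lay between 2.58 in ATP5PB and 18.3 in ATP5MC3, and in NDUFB5 it was 0.0995.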
